A study of Rattus norvegicus with 167 samples.

Results

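The comparison described here set rat spinal cord rostral to a complete transection that had been bridged with an empty tube against the same segment where the gap had been left alone, on days 1 and 3 after surgery. The members were the arrays titled as rostral ET or rostral LC on those days, 12 of the 167 arrays of the series, with 6 in each arm and 3 for each arm on each day. All operated animals were adult female Wistar rats in which the thoracic cord was cut through at T7/8 and a 5 mm piece was taken out. In the ET group a chitosan tube without added factor filled the gap, and in the LC group (lesion control) nothing did. Each sample was the 5 mm of cord next to the lesion on the head side. A further operated group, NT3, had the same tube loaded with neurotrophin-3, and 3 uninjured cords gave the baseline. The labels do not say whether the 3 arrays of a group came from 3 separate animals, or whether rostral and caudal pieces came from the same animals, so p-values measure the spread between these arrays, which may be technical in part.

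Cutting the cord opens blood vessels and kills tissue at the cut face. Within hours neutrophils enter, followed by monocytes that become macrophages, while resident microglia and astrocytes turn reactive. Type I interferons made during such responses induce a shared set of interferon-stimulated genes. Chitosan is a polysaccharide derived from chitin, and the tube holds the cord stumps apart from the surrounding tissue. Each sample was bulk tissue, in which fewer cells of a type and less RNA per cell cannot be told apart.

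Gene levels are given as RMA signals on a log2 scale, so a difference of 1 is a 2-fold difference. Differences are ET minus LC with the standard error (SE) of the limma fit, and a gene is called changed where its Benjamini-Hochberg adjusted p over all 12041 genes tested was under 0.05. Array medians of the 12 arrays lay between 7.17 and 7.22. The precision is limited by 3 arrays in a group, and 5 of the 12 arrays stood apart from the others of their group in some genes or measures. ET day 3 replicate 2 was high for many inflammatory genes, as given below. LC day 3 replicate 1 had a beta-actin 3′ minus 5′ probe set difference, a measure of RNA integrity, of 1.81, against 0.68 to 1.00 in the other 11 arrays. This measure was 1.35, 2.29 and 1.50 in the uninjured cords and 1.31, 1.09 and 1.18 in the NT3 arrays of day 1. Its part in comparisons with those arrays was not tested. LC day 3 replicate 2 lay nearer to the ET arrays for endothelial and cell cycle genes, and its class I gene RT1-CE10 was at 9.19, against 7.27 and 7.97 in the other LC arrays of day 3. ET day 1 replicate 1 and ET day 3 replicate 3 were high for skeletal muscle genes.

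Averaged over both days, 505 of the 12041 genes differed between ET and LC, or 4.19% of the genes tested. Of these, 76 rose (0.631%) and 429 fell (3.56%), and the median difference over all genes was -0.04. Among the called genes only Cxcl13 and Cxcl10 were at least 2-fold higher, and no called gene was 2-fold lower. Among the genes that rose, 72 of 76 had the same sign on both days, with a median of 0.47, and among those that fell 426 of 429 did, with a median of -0.29. Day 1 alone gave 230 genes (1.91%), with 98 that rose (0.814%) and 132 that fell (1.1%), with 18 in each direction at least 2-fold apart. Day 3 alone gave 257 (2.13%), with 41 that rose (0.341%) and 216 that fell (1.79%), with 13 at least 2-fold higher and 1 at least 2-fold lower. When the values were scaled to a common 75th percentile of each array, day 3 gave 45 that rose and 77 that fell. The counts rested on single arrays. Without LC day 3 replicate 1 the mean over days gave 89 genes, without ET day 3 replicate 1 106, without LC day 1 replicate 3 122, without ET day 1 replicate 2 152, without ET day 1 replicate 3 311, and without LC day 3 replicate 2 1532. Day 1 gave 19 genes without LC day 1 replicate 3, 80 without LC day 1 replicate 2, 443 without LC day 1 replicate 1, and 75, 68 and 126 without each ET array in turn. Day 3 gave 50 without LC day 3 replicate 1, 915 without LC day 3 replicate 2, 75 without ET day 3 replicate 1 and 109 without ET day 3 replicate 2. Fits on the compared groups alone no longer pooled the spread over 65 arrays. On the 12 arrays the mean gave 19 genes. On the ET and LC arrays of the single day alone, day 1 gave 31 and day 3 gave 0 (1183 at an unadjusted p under 0.05 by limma).

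Interferon-stimulated genes rose with the empty tube. Of 27 genes on the interferon response list 23 were tested, and 9 rose and 0 fell over both days (0.631% and 3.56% over all genes). The median difference was 0.42 against -0.04 over all genes. The rise lay on day 1, when 11 rose and 0 fell (0.814% and 1.1% over all genes), with a median of 0.55 against -0.02 over all genes. On day 3 none of the 23 was called by limma (5 at an unadjusted p under 0.05), and the median was 0.18 against -0.07 over all genes. For 5 of them the difference between days itself passed the test.

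The largest day 1 difference of the list was that of Oas1b, a member of the 2-5A synthetase family of double-stranded RNA sensors. On day 1 Oas1b was at 6.42, 7.03 and 6.58 in ET arrays and at 4.95, 4.57 and 4.43 in LC arrays. On day 3 it was at 3.46, 3.61 and 3.31 in ET arrays and at 3.43, 4.08 and 3.41 in LC arrays, close to the uninjured range of 3.38 to 3.65. These day 3 values lay near the lowest signal of the 12 arrays, 2.71. On both days Oas1b was below the array medians of 7.17 to 7.22. All ET arrays lay above all LC arrays on day 1, and the groups overlapped on day 3. The day 1 difference was 2.03 (SE 0.20, limma adjusted p = 2.3e-09) and the difference between days was -2.21 (SE 0.28, adjusted p = 5.7e-06). Usp18, the protease that removes ISG15 from proteins and restrains the interferon receptor, was at 9.48, 10.33 and 10.35 in ET arrays on day 1, against 8.50, 8.30 and 8.35 in LC arrays. On day 3 it was at 7.77, 9.26 and 8.20 in ET arrays and at 8.10, 8.12 and 8.38 in LC arrays. Again the groups separated on day 1 and overlapped on day 3, with ET day 3 replicate 2 the highest array of that day. The day 1 difference of Usp18 was 1.67 (SE 0.24, limma adjusted p = 2.6e-05) and the change between days was -1.46 (SE 0.33, adjusted p = 0.023). With each array left out in turn, the change between days lost its call in 6 of 12 fits for Usp18 (highest adjusted p 0.074, without LC day 1 replicate 3) and in 6 of 12 for Rtp4 (0.088, without LC day 1 replicate 2). Rtp4, an interferon-induced transporter-like protein, was at 10.11, 10.70 and 10.66 in ET arrays on day 1 and at 8.86, 8.94 and 9.08 in LC arrays. Rtp4 rose by 1.53 on day 1 (SE 0.23, limma adjusted p = 6.4e-05). Over both days, Rtp4 was among 4 of the 39 called genes of the naming rule that passed under every alternative run. The others were Sfxn5, Nos3 and Sema3b.

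The ubiquitin-like modifier gene Isg15 was at 10.29, 11.15 and 11.01 in ET arrays on day 1, against 9.11, 8.97 and 9.55 in LC arrays. The antiviral GTPase gene Mx2 was at 8.05, 9.12 and 8.85 in ET arrays, against 7.42, 7.22 and 6.89 in LC arrays. Both separated the groups completely on day 1, with differences of 1.61 (SE 0.34, limma adjusted p = 0.0076) for Isg15 and 1.50 (SE 0.21, adjusted p = 2.6e-05) for Mx2. The other list members that rose on day 1 were Irf7, a transcription factor that amplifies interferon production (1.36), the antiviral GTPase gene Mx1 (1.21), Ifi44 (0.86), Ifi27 (0.64), the GTPase gene Irgm (0.52) and Irf9, a transcription factor of the interferon response (0.42). Ddx60, a helicase gene outside the list, was higher over both days by 0.88 (SE 0.20, limma adjusted p = 0.0096). The class I gene RT1-S3 rose by 0.78 on day 1 (SE 0.20, limma adjusted p = 0.027), and all 4 of its probe sets were higher in ET over both days. Over both days RT1-S3 was called (0.47, limma adjusted p = 0.040) and lost the call in 8 of 12 fits with 1 array left out (highest adjusted p 0.20, without LC day 3 replicate 1). Outside the naming rule and chosen after its values were seen, Rig1, the files' symbol for the RNA sensor RIG-I, was higher by 0.90 on day 1 (SE 0.15, limma adjusted p = 0.00026).

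The interferon-inducible chemokine Cxcl10, a ligand of CXCR3 on T cells, was at 8.69, 8.85 and 9.12 in ET arrays on day 1 and at 7.45, 7.48 and 7.69 in LC arrays. On day 3 it was at 6.69, 9.57 and 7.28 in ET arrays and at 7.42, 6.61 and 7.25 in LC arrays. ET day 3 replicate 2 was far above the others. Cxcl10 rose by 1.05 over both days (SE 0.30, limma adjusted p = 0.034), and without that array the difference was 0.62 (adjusted p = 0.15, and lost in 6 of 12 such fits). Isg15 over both days also lost its call without it, at 0.67 (limma adjusted p = 0.075) against 0.97 with it, and the day 1 difference lost its call without ET day 1 replicate 2 (1.44, adjusted p = 0.068) and without LC day 1 replicate 2 (1.48, adjusted p = 0.051). Without ET day 1 replicate 2, 5 list members were called over both days, and 13 were called without ET day 1 replicate 1. On the 12 arrays alone 2 were called.

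**Figure D1:**
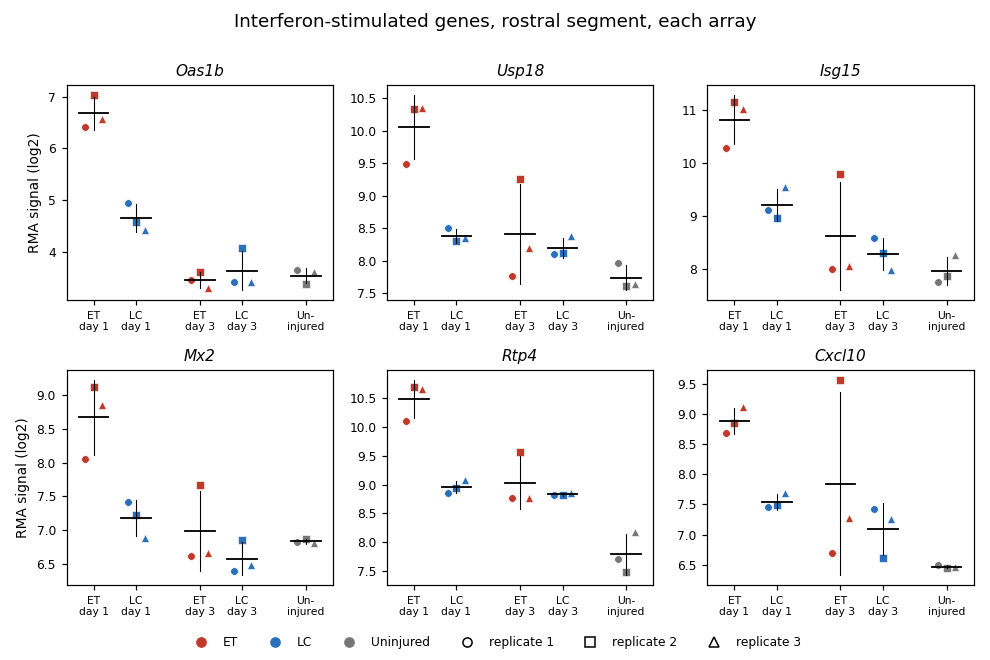
RMA signal on a log2 scale (vertical axis) of 6 interferon-stimulated genes in each rostral array of ET and LC on days 1 and 3 and in 3 uninjured cords. Points are arrays, marked by replicate number, horizontal bars are group means and vertical bars are the SD of 3 arrays; all ET arrays lie above all LC arrays on day 1 in each panel, and the groups overlap on day 3.

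The promoters of these genes are shown because interferon acts through a short shared element. In the RefSeq windows of assembly GRCr8, from 250 bases before to 50 after each gene's start, 7 of the 11 list members that rose on day 1 had an entry. The core of the interferon-stimulated response element was searched as GAAANNGAAA on both strands, with overlapping matches counted. It was in 5 of the 7 windows (Oas1b, Irf7, Ifi27, Ifi44 and Irgm), against 3.92% of all 33469 windows. It was not in the windows of Mx1 and Irf9, which says only that these letters are absent there. The matches are a description of sequence and were not tested as sites. The window of Oas1b is chr12:41395803-41396102 on the minus strand and holds overlapping matches. That of Irf7 is chr1:205799974-205800273 on the minus strand, with the match on the other strand. That of Ifi27 is chr6:128355062-128355361 on the plus strand, with 2 matches. Each is given in the direction of its gene, with matches in capitals.
Oas1b: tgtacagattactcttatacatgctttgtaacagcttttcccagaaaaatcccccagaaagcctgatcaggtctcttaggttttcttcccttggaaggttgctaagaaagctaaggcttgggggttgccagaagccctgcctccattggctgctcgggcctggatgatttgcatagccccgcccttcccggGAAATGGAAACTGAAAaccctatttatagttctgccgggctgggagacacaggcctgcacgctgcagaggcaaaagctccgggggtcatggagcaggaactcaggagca
Irf7: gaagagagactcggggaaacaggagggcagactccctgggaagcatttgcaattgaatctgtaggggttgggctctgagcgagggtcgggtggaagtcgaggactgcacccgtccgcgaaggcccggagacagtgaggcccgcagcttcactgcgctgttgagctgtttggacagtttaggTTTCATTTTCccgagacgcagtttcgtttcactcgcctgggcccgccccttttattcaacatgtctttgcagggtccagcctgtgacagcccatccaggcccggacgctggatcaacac
Ifi27: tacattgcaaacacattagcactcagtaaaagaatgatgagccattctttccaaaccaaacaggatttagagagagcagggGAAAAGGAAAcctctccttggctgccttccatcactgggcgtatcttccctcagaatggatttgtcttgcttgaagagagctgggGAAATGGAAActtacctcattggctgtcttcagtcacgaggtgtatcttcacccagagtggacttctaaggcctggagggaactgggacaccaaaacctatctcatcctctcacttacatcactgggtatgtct

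Several genes of blood vessel endothelium fell with the tube. Of 18 genes on the endothelial list 17 were tested, and 0 rose and 6 fell over both days (0.631% and 3.56% over all genes). By the brightest probe set per gene all 17 differences were negative, with a median of -0.24 against -0.04 over all genes. Those that fell were Vwf, Pecam1, Tie1, Tek, Eng and Flt1. The other probe sets of Flt1 differed by -0.03 and -0.02, against -0.33 in the kept one. Probe sets not kept differed by 0.50 for Apln, 0.18 for Aplnr, 0.14 for Vegfa and 0.11 for Kdr. Those of Abcb1a and Ocln differed by -0.24 and -0.04. Other genes known from endothelium, namely Nos3, Mmrn2, Ccm2l and the leukocyte adhesion gene Sele, were among the 12 that fell most over both days.

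Nos3, the endothelial nitric oxide synthase, was at 7.58, 7.02 and 7.56 in ET arrays on day 1 and at 7.81, 7.77 and 8.34 in LC arrays. On day 3 Nos3 was at 5.05, 5.53 and 5.32 in ET arrays, against 6.36, 6.21 and 6.42 in LC arrays. Uninjured cords had 5.11, 5.58 and 5.13, so the LC arrays stood above the baseline on both days, and the ET arrays of day 3 overlapped with it. Nos3 fell by 0.81 over both days (SE 0.13, limma adjusted p = 0.00028), the largest fall among the genes called over both days. Vwf, the clotting factor stored in endothelial cells and platelets, was at 8.36, 8.09 and 8.13 in ET arrays on day 1 and at 8.93, 8.79 and 9.11 in LC arrays. On day 3 Vwf was at 8.57, 8.89 and 8.72 in ET arrays and at 9.77, 8.96 and 9.77 in LC arrays. The groups separated on both days, and LC day 3 replicate 2 was the LC array nearest to ET. The difference of Vwf was -0.76 over both days (SE 0.15, limma adjusted p = 0.0043).

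Pecam1, an adhesion molecule at endothelial junctions, was at 7.89, 7.79 and 8.06 in ET arrays on day 1, against 8.29, 8.41 and 8.64 in LC arrays. On day 3 it was at 7.77, 7.87 and 7.73 in ET arrays, against 8.49, 7.88 and 8.57 in LC arrays. On day 3 LC replicate 2 was 0.01 above the highest ET array, and the other LC arrays lay clearly higher. Pecam1 fell by 0.53 (SE 0.10, limma adjusted p = 0.0015), with nearly the same difference on day 1 (-0.53) and day 3 (-0.52). Mmrn2, an endothelial matrix protein that binds VEGF, was at 6.45, 6.18 and 6.19 in ET arrays on day 1, against 7.13, 6.66 and 7.19 in LC arrays. On day 3 Mmrn2 was at 6.47, 6.63 and 6.76 in ET arrays, against 7.66, 6.86 and 7.63 in LC arrays. It separated the groups on both days and fell by 0.74 (SE 0.13, limma adjusted p = 0.0013). Ccm2l, a regulator of endothelial junctions, fell by 0.58 (SE 0.13, limma adjusted p = 0.011), and Tie1, an orphan receptor of the angiopoietin pathway, fell by 0.51 (SE 0.13, adjusted p = 0.026). Both separated the groups on both days. With 1 array left out, Tie1 lost its call in 4 of 12 fits (highest adjusted p 0.11, without LC day 3 replicate 1) and Sele, which fell by 0.63 (SE 0.17, limma adjusted p = 0.031), in 6 of 12 (0.17, without LC day 3 replicate 1).

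The VEGF receptor gene Flt1 had a day 1 difference of -0.69 (SE 0.14, limma adjusted p = 0.0046) and a day 3 difference of 0.03 (adjusted p = 0.93). Without LC day 3 replicate 2 (1532 of all genes called) the number of endothelial list genes that fell over both days was 9. It was 2 without ET day 1 replicate 2, without ET day 3 replicate 1 and without LC day 3 replicate 1, and 3 without LC day 1 replicate 3 and without LC day 3 replicate 3. With the beta-actin 3′ minus 5′ difference as a covariate it was 2, and on the 12 arrays alone 0. The part of RNA integrity in these differences was not tested further.

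**Figure D2:**
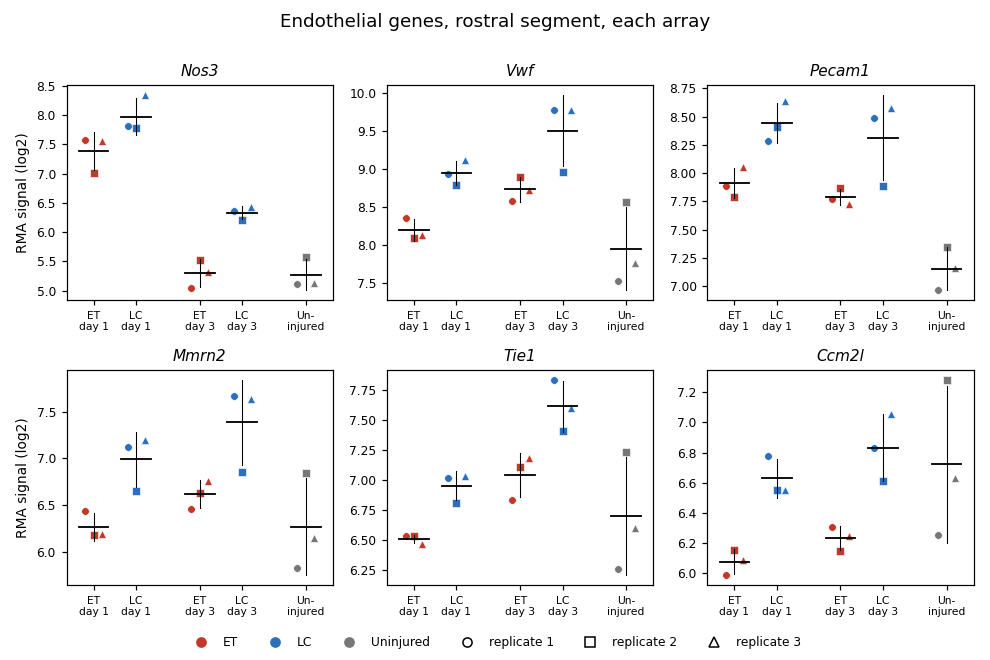
RMA signal on a log2 scale (vertical axis) of 6 endothelial genes in each rostral array of ET and LC on days 1 and 3 and in 3 uninjured cords. Points are arrays, horizontal bars are group means and vertical bars are the SD of 3 arrays; every ET array lies below every LC array on both days in each panel, with LC day 3 replicate 2 the lowest LC array of its day.

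Several genes of platelets and blood handling were lower with the tube on day 1. Tubb1, the platelet beta-tubulin, was at 7.82, 8.12 and 8.93 in ET arrays, against 9.16, 10.27 and 10.70 in LC arrays. Clec1b, the platelet receptor CLEC-2, was at 7.19, 7.35 and 8.21 in ET arrays, against 8.40, 9.36 and 9.99 in LC arrays. Mmrn1, a protein of platelet granules and endothelium, was at 4.21, 4.40 and 4.76 in ET arrays, against 5.24, 6.55 and 6.89 in LC arrays. In all 3 genes every ET array lay below every LC array, and the uninjured cords (7.78 to 7.92 for Tubb1) lay near the lowest ET arrays. The differences were -1.75 (SE 0.49, limma adjusted p = 0.047) for Tubb1, -1.67 (SE 0.45, adjusted p = 0.040) for Clec1b and -1.77 (SE 0.47, adjusted p = 0.039) for Mmrn1. Without LC day 1 replicate 3, the highest array in each, the adjusted p-values were 0.31, 0.31 and 0.29, and each call was lost in 4 or 5 of the 6 fits that left out 1 array. On day 3 all 3 were not called, with differences of 0.77, 0.82 and 0.55, and for Clec1b the change between days was 2.49 (SE 0.64, limma adjusted p = 0.045), lost in 7 of 12 such fits.

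Of 13 haem and iron genes 9 were tested and 2 fell over both days (3.56% over all genes), with a median of -0.01 against -0.04 over all genes. Hmox1, the inducible haem oxygenase that breaks down haem from lysed red cells, was at 12.48, 12.01 and 12.86 in ET arrays on day 1 and at 13.08, 13.25 and 13.34 in LC arrays. On day 3 Hmox1 was at 12.83, 12.97 and 12.88 in ET arrays and at 13.44, 13.16 and 12.96 in LC arrays. Both groups stood far above the uninjured 8.04, 7.63 and 8.21. Hmox1 fell by 0.53 over both days (SE 0.12, limma adjusted p = 0.011) and by 0.77 on day 1 (SE 0.17, adjusted p = 0.013). The call over both days was lost without ET day 1 replicate 2 (-0.42, adjusted p = 0.066) and without LC day 3 replicate 1 (-0.47, adjusted p = 0.070). Slc40a1, the iron exporter ferroportin, fell by 0.60 (SE 0.16, limma adjusted p = 0.029), but without LC day 3 replicate 2, at 10.05 against 8.63 and 8.82 in the other LC arrays of that day, the difference was -0.38 and the call was lost, as in 6 of 12 fits with 1 array left out.

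For a set of inflammatory genes the ET minus LC difference changed between the days. The neutrophil list had 9 of 15 genes tested. On day 1 all 9 differences were negative, with a median of -0.94 against -0.02 over all genes, and 2 fell (1.1% over all genes). On day 3 all 9 were positive, with a median of 0.95 against -0.07 over all genes, and 0 were called by limma (4 at an unadjusted p under 0.05). Over all genes, 82 had a difference that changed between the days (0.681%), 48 upward (0.399%) and 34 downward (0.282%). Of these, 47 of 48 and 30 of 34 had opposite signs on the 2 days. The upward set included Saa3, Il1b, Cxcl13, G0s2, Clec1b and Il1rn, and the downward set Oas1b, Usp18, Rtp4, Masp1, Ccnd2 and Enpp6. The class I gene RT1-CE10 was at 10.39 to 11.36 in the ET and LC arrays of day 1. It was at 7.27 to 9.19 in those of day 3 and at 6.49 to 6.68 in uninjured cords. The part in these changes of what separates the arrays of the 2 days was not tested.

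On day 1 the LC arrays were the higher ones. Il1b, the interleukin-1 beta gene, was at 8.86, 8.90 and 9.21 in ET arrays and at 9.68, 10.96 and 10.88 in LC arrays. Cxcr2, the neutrophil chemokine receptor, was at 6.77, 7.21 and 6.90 in ET arrays and at 7.10, 8.39 and 8.22 in LC arrays. LC day 1 replicates 2 and 3 were highest in both. For Cxcr2 LC replicate 1 lay within the ET range, and for Il1b all ET arrays lay below all LC arrays. Il1b did not pass on day 1 (-1.52, limma adjusted p = 0.19). Cxcr2 fell by 0.94 on day 1 (SE 0.20, limma adjusted p = 0.0071) and Csf3r, the granulocyte colony-stimulating factor receptor, by 1.19 (SE 0.24, adjusted p = 0.0053). Of 21 tested macrophage genes 2 fell on day 1, namely Itgam (-0.53) and the pan-leukocyte gene Ptprc (-0.85), with a list median of -0.33. Over all genes 1.1% fell on that day. Without LC day 1 replicate 1, 6 macrophage and 3 neutrophil genes fell on day 1. That fit called more of all genes, as given above. Without LC day 1 replicate 2 or replicate 3 no gene of either list fell (80 and 19 of all genes were called by limma). Without ET day 1 replicate 1, 0 macrophage genes and 1 neutrophil gene fell.

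On day 3 ET replicate 2 stood above the other arrays for several of these genes. Il1b was at 7.42, 12.39 and 8.06 in ET arrays and at 7.42, 6.96 and 7.65 in LC arrays. Saa3, an acute-phase amyloid gene, was at 8.59, 11.69 and 7.16 in ET arrays and at 6.60, 6.02 and 5.92 in LC arrays. ET replicate 2 was the highest array in both. The groups overlapped for Il1b, while all ET arrays of Saa3 lay above all LC arrays. Saa3 rose by 2.97 on day 3 (SE 0.51, limma adjusted p = 0.0011), and by 1.70 without that array (adjusted p = 0.024). Its change between days was 4.16 (SE 0.72, limma adjusted p = 0.0031). That of Il1b was 3.47 (SE 0.85, limma adjusted p = 0.033), or 1.92 without ET day 3 replicate 2 (adjusted p = 0.16), with the call lost in 7 of 12 such fits. Il1rn, the interleukin-1 receptor antagonist, was at 7.11, 9.59 and 7.56 in ET arrays on day 3, against 6.16, 6.20 and 6.52 in LC arrays. It separated the groups and rose by 1.80 (SE 0.30, limma adjusted p = 0.00087), or by 1.05 without replicate 2 (adjusted p = 0.020). Without ET day 3 replicate 2, 13 of all genes changed between the days in place of 82, without LC day 1 replicate 3 11, and without LC day 1 replicate 1 234. With the replicate number as a block within the day 1 arrays, 125 did. The call was also lost for Cxcl13 (2.32, limma adjusted p = 0.11) and G0s2 (1.62, adjusted p = 0.11) without ET day 3 replicate 2.

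**Figure D3:**
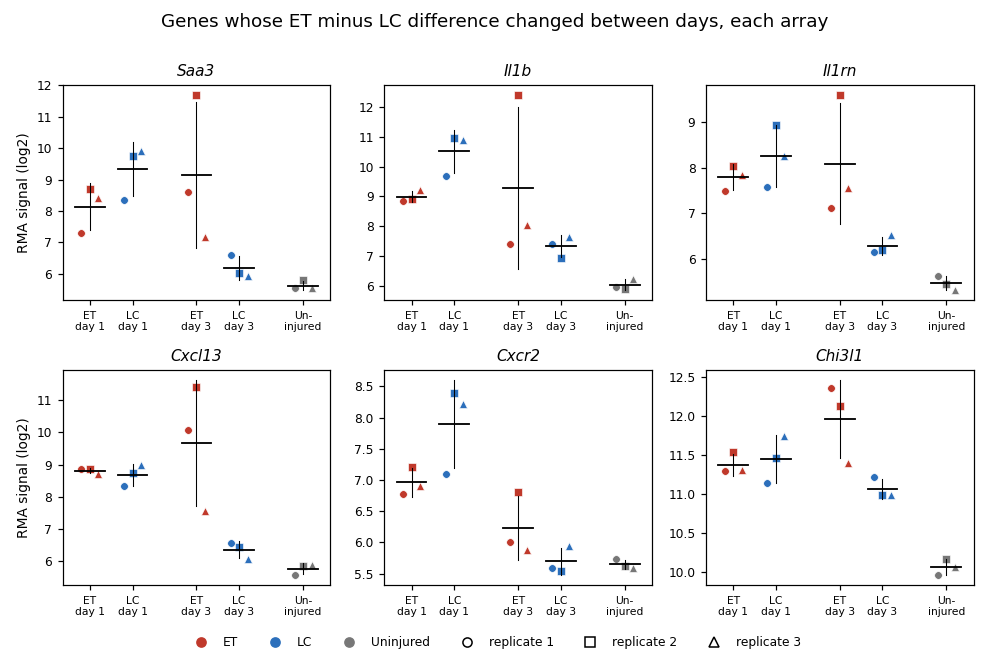
RMA signal on a log2 scale (vertical axis) of 6 genes whose ET minus LC difference changed between days, in each rostral array and in 3 uninjured cords. Points are arrays, horizontal bars are group means and vertical bars are the SD of 3 arrays; the ET means of Il1b and Cxcr2 are lower on day 1, ET day 3 replicate 2 (square) is the highest array of its day in 5 panels, and in the sixth, Chi3l1, it is second to ET replicate 1.

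Cxcl13, the chemokine that attracts B cells through CXCR5, rose on day 3. It was at 10.06, 11.41 and 7.57 in ET arrays and at 6.56, 6.45 and 6.08 in LC arrays, while on day 1 it was at 8.86, 8.86 and 8.72 in ET arrays and at 8.32, 8.74 and 8.99 in LC arrays. Every ET array of day 3 lay above every LC array, and the groups overlapped on day 1. The day 3 difference was 3.31 (SE 0.51, limma adjusted p = 0.00032). No B cell or plasma cell gene of the 5 tested was called on either day by limma (1 on day 1 and 2 on day 3 at an unadjusted p under 0.05). Complement C3 was at 10.20, 10.62 and 8.90 in ET arrays on day 3, against 8.88, 8.98 and 8.42 in LC arrays, so the groups overlapped. C3 rose by 1.15 (SE 0.22, limma adjusted p = 0.0037). Chi3l1, a chitinase-like lectin without chitinase activity, was at 12.36, 12.12 and 11.40 in ET arrays on day 3 and at 11.21, 10.99 and 10.98 in LC arrays. The groups separated, with a difference of 0.90 (SE 0.14, limma adjusted p = 0.00051). Chi3l1 was the 1 gene called among 5 tested chitinases and chitin lectins, whose median on day 3 was 0.03. The arginine-degrading enzyme gene Arg1, a marker of alternatively activated macrophages, rose by 1.47 on day 3 (SE 0.26, limma adjusted p = 0.0016), and Socs3, a feedback inhibitor of STAT3 signalling, by 0.64 (SE 0.13, adjusted p = 0.0067). The sialic acid receptor gene Siglec5 rose by 1.66 (SE 0.38, limma adjusted p = 0.014), or by 1.00 without ET day 3 replicate 2 (adjusted p = 0.16) and by 0.95 without LC day 3 replicate 2 (adjusted p = 0.095).

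**Figure D4:**
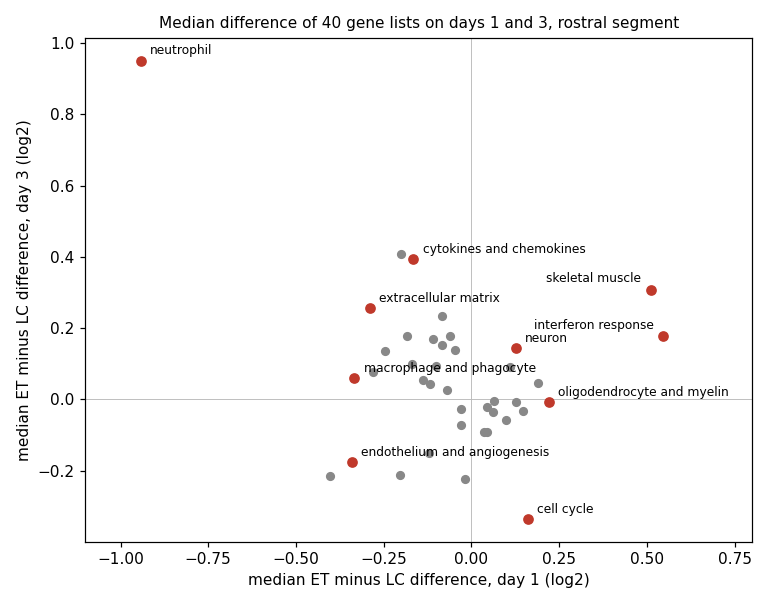
Median ET minus LC difference of each of 40 gene lists on day 1 (horizontal axis, log2) and day 3 (vertical axis, log2). Each point is a list and red points are named; the neutrophil list lies at -0.94 on day 1 and 0.95 on day 3, the interferon list at 0.55 and 0.18, and the endothelial list at -0.34 and -0.18.

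Several myelin genes rose with the tube on day 1. Of 16 tested myelin genes 4 rose on day 1 and 0 fell (0.814% and 1.1% over all genes), with a median of 0.22 against -0.02 over all genes. On day 3 0 were called by limma (0 at an unadjusted p under 0.05), with a median of -0.01. Gal3st1, which makes the myelin lipid sulfatide, was at 8.63, 8.87 and 8.75 in ET arrays on day 1 and at 8.06, 8.14 and 8.12 in LC arrays. On day 3 Gal3st1 was at 8.63, 8.68 and 8.59 in ET arrays and at 8.32, 8.66 and 8.74 in LC arrays. Both groups were below the uninjured 9.65, 9.59 and 9.47, and the ET arrays of day 1 were closer to it. The day 1 difference was 0.65 (SE 0.10, limma adjusted p = 0.00014). Fa2h, which hydroxylates myelin fatty acids, rose by 0.64 (SE 0.14, limma adjusted p = 0.013). Enpp2 rose by 0.53 (SE 0.13, limma adjusted p = 0.024) and the surface protein gene Mog by 0.48 (SE 0.13, adjusted p = 0.035). For Gal3st1, Fa2h and Enpp6, a phosphodiesterase of newly forming oligodendrocytes, the difference was lower on day 3 than on day 1, by -0.58, -0.80 and -1.003, and for Enpp6 that call was lost in 7 of 12 fits with 1 array left out. Without ET day 1 replicate 2, 1 myelin gene rose on day 1, and without LC day 1 replicate 2 or replicate 3, 2 did. The structural myelin gene Mbp was not called, at 0.03 over both days (limma adjusted p = 0.68). Its kept probe set had a mean level of 14.42, near the highest signal of the 12 arrays, 14.96. The other probe sets of Mbp differed by 0.25 and 0.27 over both days.

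Of the genes that rose over both days outside the interferon group, Sfxn5, a mitochondrial carrier, held under every alternative. It was at 8.39, 8.37 and 8.44 in ET arrays on day 1 and at 7.18, 7.40 and 6.72 in LC arrays. On day 3 Sfxn5 was at 8.45, 8.25 and 8.32 in ET arrays and at 7.67, 7.89 and 7.98 in LC arrays. All ET arrays lay above all LC arrays on both days, and uninjured cords were higher still at 9.41, 9.67 and 9.73. The difference was 0.90 (SE 0.16, limma adjusted p = 0.0013). Kif5c, a neuronal kinesin motor, was higher in all ET arrays on both days, with a difference of 0.96 (SE 0.29, limma adjusted p = 0.048). Its other 2 probe sets had differences of 0.01 and 0.08. Cxxc4, an inhibitor of Wnt signalling, rose by 0.96 (SE 0.22, limma adjusted p = 0.011) and Zbtb41, a zinc finger gene, by 0.95 (SE 0.26, adjusted p = 0.029). With 1 array left out, Kif5c lost its call in 9 of 12 fits (highest adjusted p 0.14, without LC day 3 replicate 1), Zbtb41 in 6 (0.091, without LC day 1 replicate 3) and Cxxc4 in 2 (0.070, without LC day 3 replicate 1). No gene of the 21 tested on the neuron list was called by limma on either day or over both (3 over both days at an unadjusted p under 0.05), and the list median was 0.12 against -0.04 over all genes.

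Stat3, the transcription factor of astrocyte reactivity, was at 11.44, 11.08 and 10.99 in ET arrays on day 1 and at 10.41, 10.73 and 10.01 in LC arrays. It was higher in all ET arrays on both days and rose by 0.48 (SE 0.13, limma adjusted p = 0.029), while its other probe set differed by 0.03. Gfap, the astrocyte filament gene, did not pass, at 0.01 (SE 0.04, limma adjusted p = 0.93). Bdnf, a neurotrophin gene, was at 7.90, 7.67 and 7.79 in ET arrays on day 1 and at 7.66, 6.98 and 6.90 in LC arrays. Its day 1 difference was 0.61 (SE 0.16, limma adjusted p = 0.040), and its other probe set differed by -0.00 over both days. Over both days Bdnf was not called (0.37, limma adjusted p = 0.0535), and it was with the replicate block within the day 1 arrays (adjusted p = 0.043). Cntf, a neurotrophic cytokine of astrocytes, fell by 0.36 over both days (SE 0.10, limma adjusted p = 0.031). With 1 array left out, Stat3 lost its call in 5 of 12 fits (highest adjusted p 0.12) and Cntf in 7 (0.093), both most without LC day 1 replicate 3. The neurotrophin receptor genes Ntrk2, Ntrk3 and Ngfr were not called, and Ntf3 was below the filter on low values. The kept probe set of Ntrk2 differed by 0.03 over both days, and the others by 0.06 to 0.62.

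Among the other genes that fell most over both days were the semaphorin gene Sema3b (-0.69, SE 0.14, limma adjusted p = 0.0058) and Drp2, a periaxin-binding protein of Schwann cells (-0.67, SE 0.13, adjusted p = 0.0022). Sema3b was at 6.45, 7.12 and 6.89 in ET arrays on day 1 and at 7.45, 7.61 and 7.80 in LC arrays, and separated the groups on both days. The kept probe set of Drp2 separated them as well, but its other 4 probe sets differed by -0.09 to 0.09. Drp2 was the 1 gene called of 5 tested on the Schwann cell list. Sostdc1, a BMP and Wnt antagonist, fell by 0.69 (SE 0.20, limma adjusted p = 0.036), and Pnpla7, a lysophospholipase, by 0.67 (SE 0.15, adjusted p = 0.0091). Acer2, an alkaline ceramidase, fell by 0.60 (SE 0.15, limma adjusted p = 0.015). The kept probe set of Trps1, a GATA-type repressor, fell by 0.56 (SE 0.14, limma adjusted p = 0.015), against -0.02 to 0.41 in its other 3. With 1 array left out, Sostdc1 lost its call in 8 of 12 fits (highest adjusted p 0.10, without LC day 1 replicate 3), Trps1 in 2 (0.087, without ET day 3 replicate 1) and Pnpla7 in 1 (0.058, without LC day 3 replicate 1). On day 3 Gdf15, a stress-induced cytokine, fell by 0.96 (SE 0.26, limma adjusted p = 0.036), a call lost in 4 of 6 such fits (highest adjusted p 0.22, without ET day 3 replicate 1).

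A few cell cycle genes fell with the tube on day 3. All 25 tested cell cycle genes had negative differences, with a median of -0.34 against -0.07 over all genes, and 3 fell (1.79% over all genes). Mcm5, a subunit of the replicative helicase, was at 7.98, 8.30 and 8.50 in ET arrays and at 9.53, 8.38 and 9.12 in LC arrays. LC replicate 2 lay within the ET range. Mcm5 fell by 0.75 (SE 0.15, limma adjusted p = 0.0067), Mcm3 by 0.50 (SE 0.13, adjusted p = 0.036) and the cyclin gene Ccne1 by 0.45 (SE 0.12, adjusted p = 0.036). Without LC day 3 replicate 2, in a fit that called more of all genes as given above, 14 cell cycle genes fell. Without ET day 3 replicate 1 or LC day 3 replicate 1 none did, without ET day 3 replicate 2 or LC day 3 replicate 3 1 did, and without ET day 3 replicate 3 7 did. Under either other scaling of the arrays 1 fell, and with the beta-actin covariate 0 (55 of all genes by limma). The part of RNA integrity in this list was not tested further. On day 1 the mean level of the list went the other way. Relative to uninjured cord it was then 1.05 to 1.16 in ET arrays and 0.86 to 1.02 in LC arrays. The list members Mcm5 and Mcm2 were lower in ET on both days and were called lower over both. With 1 array left out, Mcm5 lost that call in 8 of 12 fits and Mcm2 in 5 (highest limma adjusted p 0.24 and 0.19, without LC day 3 replicate 1).

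Several genes of the core injury response did not pass the test. The monocyte chemokine gene Ccl2 was at 12.63, 12.01 and 12.65 in ET arrays on day 1 and at 12.30, 12.45 and 12.60 in LC arrays. Its difference over both days was 0.10 (SE 0.21, limma adjusted p = 0.84). Atf3, an injury-induced transcription factor, differed by 0.12 (SE 0.13, limma adjusted p = 0.65), and the phagocyte genes Aif1 and Cd68 by -0.13 (SE 0.13) and 0.03 (SE 0.16), neither called. The synaptic gene Snap25 differed by 0.14 (SE 0.08, limma adjusted p = 0.32). No gene was called over both days by limma among 24 tested genes of the extracellular matrix, 17 of antigen presentation, 21 immediate early genes, 20 of hypoxia and glycolysis and 18 of the respiratory chain, with 5, 1, 3, 1 and 0 at an unadjusted p under 0.05. None of these p-values shows that the groups were equal.

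Skeletal muscle genes were high in single ET arrays. The mean level of 21 tested skeletal muscle genes, relative to uninjured cord, was 1.50, -0.16 and -0.03 in ET arrays of day 1 and -0.31, -0.15 and 1.28 in those of day 3. In LC arrays it was -0.17, 0.13 and -0.19 on day 1 and -0.12, -0.16 and 0.01 on day 3. ET day 1 replicate 1 and ET day 3 replicate 3 were the high arrays. The list median was 0.44 over both days, and 1 gene, the calcium channel gene Ryr1, was called (0.43, SE 0.13, limma adjusted p = 0.042), a call lost in 9 of 12 fits with 1 array left out (highest adjusted p 0.12, without LC day 3 replicate 1). With the mean muscle level as a covariate, chosen after seeing the data, 560 genes were called over both days in place of 505, with 10 interferon genes higher and 6 endothelial genes lower.

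**Figure D5:**
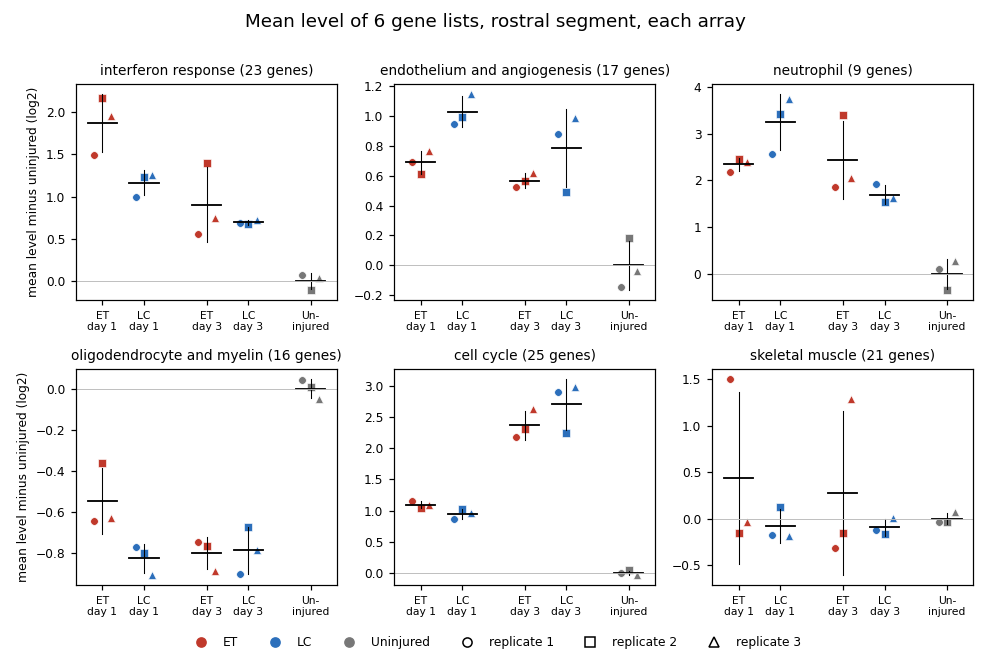
Mean level of 6 gene lists relative to the uninjured mean (vertical axis, log2) in each rostral array. Points are arrays, horizontal bars are group means and vertical bars are the SD of 3 arrays; the interferon list is highest in the ET arrays of day 1, 1 ET array on each day stands out for muscle genes, and LC day 3 replicate 2 lies apart from the other LC arrays for the endothelial and cell cycle lists.

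The caudal segment of the same groups and days gave its own comparison on 12 further arrays. There 3137 genes were called (26.1%), of which 1055 rose (8.76%) and 2082 fell (17.3%). Of the 76 genes that rose rostrally 12 also rose caudally (15.8%), which was 1.14% of those that rose caudally, and 3 fell. Of the 429 that fell rostrally 45 fell caudally (10.5%, or 2.16% of the caudal ones), and 9 rose. The interferon-stimulated gene Mx1 was higher caudally by 0.97 (SE 0.27, limma adjusted p = 0.0057), Mx2 by 0.82 (SE 0.21, adjusted p = 0.0035) and Usp18 by 0.68 (SE 0.23, adjusted p = 0.024). Isg15 and Oas1b were not called there over both days, at 0.06 and 0.34. On caudal day 1, when 20.9% of all genes were called, Oas1b was higher by 0.90 (SE 0.34, limma adjusted p = 0.044). In the test of the difference between segments none of these 5 was called, with limma adjusted p-values of 0.094 to 0.87. Cxcl13 was higher caudally by 1.64 (SE 0.37, limma adjusted p = 0.0012), against 1.72 rostrally. Caudally Nos3 differed by -0.51 (SE 0.13, limma adjusted p = 0.0033) and Pecam1 by -0.38 (SE 0.10, adjusted p = 0.0027). Bdnf differed between segments, at 0.37 rostrally and -0.47 caudally (difference 0.83, SE 0.18, limma adjusted p = 0.0041), as did Sfxn5 (0.90 and -0.01, adjusted p = 0.027) and the endothelial receptor gene Tek (-0.42 and 0.05, adjusted p = 0.021). In all, 1591 genes differed between segments (13.2%), 632 upward (5.25%) and 959 downward (7.96%), and 160 did without Caudal ET day 1 replicate 3.

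On days 10 to 90, in 29 other rostral arrays, 3807 genes were called (31.6%), of which 1555 were higher in ET than in LC (12.9%) and 2252 lower (18.7%). Of the 76 genes that rose on days 1 and 3, 3 were higher later and 42 were lower (55.3%, or 1.87% of those lower later). Of the 429 that fell early, 76 were higher later (17.7%) and 21 lower (4.9%). The interferon-stimulated genes named above had the opposite sign later. Oas1b differed by -0.45 (SE 0.09, limma adjusted p = 0.00012), Mx2 by -0.45 (SE 0.10, adjusted p = 0.00027) and Isg15 by -0.58 (SE 0.16, adjusted p = 0.0033). Sfxn5 differed by -0.46 (SE 0.10, limma adjusted p = 0.00045). Nos3, Vwf and Mmrn2 were not called later, at 0.07, -0.04 and 0.09.

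The tube loaded with neurotrophin-3 shares the ET arrays when set against ET and the LC arrays when set against LC, so values are given side by side. NT3 minus ET over days 1 and 3 called 1856 genes (15.4%), 1117 higher (9.28%) and 739 lower (6.14%), and NT3 minus LC called 4026 (33.4%), 1709 higher (14.2%) and 2317 lower (19.2%). Oas1b on day 1 was at 3.26, 3.43 and 3.28 in NT3 arrays, within or below the range of uninjured cord and far below ET. Usp18 was at 8.18, 8.09 and 7.58 in NT3 arrays on day 1. Over both days NT3 minus ET was -1.70 for Oas1b (SE 0.14, limma adjusted p = 3.5e-12) and -0.81 for Usp18 (SE 0.17, adjusted p = 0.00097), and NT3 minus LC was -0.77 and 0.13. NT3 minus ET was -1.57 for Saa3 (SE 0.36, limma adjusted p = 0.0023) and -1.47 for Arg1 (SE 0.19, adjusted p = 5.7e-07). Among endothelial genes, Nos3 was lower in NT3 than in ET, with a difference of -0.61 (SE 0.13, limma adjusted p = 0.0012), while Vwf (0.28), Pecam1 (0.06) and Mmrn2 (0.19) were not called. Against LC, NT3 gave -1.41 for Nos3, -0.48 for Vwf, -0.47 for Pecam1 and -0.55 for Mmrn2, all called. The class I gene RT1-CE10 was at 6.64 to 6.85 in NT3 arrays of day 1, against 10.70, 10.82 and 10.997 in ET arrays and 10.39 to 11.36 in LC arrays, and the part in these differences of what separates those arrays was not tested.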

How the data were processed

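Total RNA of 5 mm cord segments was hybridised to Affymetrix arrays. Per the submitters' processing notes the authors made the values with GCOS, Affymetrix Expression Console and RMA. How arrays were batched for normalisation is not given in the sources used here. The deposited log2 values of 31099 probe sets were used as they stand. There were 57 control probe sets, 20832 with 1 symbol, and 436 with several, which were dropped. RefSeq's GRCr8 annotation matched 20764 and changed 0 symbols. The brightest probe set on average stood for each of 14218 genes. Genes had to exceed percentile 40 of the array on 3 or more arrays, and 12041 did.

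Groups came from the labels. All 65 rostral arrays with the uninjured cords entered 1 limma 3.58.1 fit (R 4.3.3; lmFit, eBayes) of group means, and 128 arrays the fit of segment differences. Contrasts were ET minus LC on each day, their mean and their difference. P-values were adjusted by Benjamini-Hochberg. Members, lists and tests were chosen with earlier results of these data known. Named genes were the 12 highest and 12 lowest called over both days with 1 sign, up to 3 called members per list, 4 in each direction per day, 6 in each direction for the day difference, and a fixed set called or not (67 named, 65 tested). The other genes named (among them Irf7, Flt1, Cxcr2, Csf3r, Arg1, Socs3, C3, Fa2h, Mog, Tek and Rig1) were chosen after their values were seen.

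Simulated data on 12041 genes drew independent normal noise with each gene's spread within groups over all arrays. Unlike the arrays here, no simulated array stood apart from its group, so recovery in the real data may differ. There the mean of days recovered 30 of 67 genes changed by 0.3, 55 of 67 by 0.6 and 66 of 66 by 1.2 in the simulated data. Same-numbered ET and LC arrays of day 1 had correlations of deviations of 0.12, 0.28 and 0.52. The highest with another number were -0.03, 0.26 and -0.26. On day 3 same-numbered arrays had -0.28, -0.09 and 0.24, against 0.36, 0.21 and 0.05 with another number. Between segments the 12 correlations ran from -0.33 to 0.52, and all 3 of ET day 3 were over 0.1. The labels give no reason for a pairing. A block on the number within the day 1 arrays was added after seeing the data. Alternatives covered the filter, scaling, probe set rule, samples fitted, array weights, prior, covariates and each array left out.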

Additional observations from a re-analysis of the deposited data

Results flagged for a closer look

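For 82 genes the ET minus LC difference itself changed between days 1 and 3 (limma adjusted p under 0.05). Those named had a day 3 minus day 1 value of 4.16 for Saa3, 3.47 for Il1b, 3.18 for Cxcl13, 2.66 for G0s2, 2.49 for Clec1b and 2.26 for Il1rn. In the other direction the values were -2.21 for Oas1b, -1.46 for Usp18, -1.33 for Rtp4, -1.27 for Masp1, -1.16 for Ccnd2 and -1.003 for Enpp6. Ccnd2, a G1 cyclin gene, had all ET arrays above all LC arrays on day 1 and all below on day 3. With 1 array left out in turn, its change between days lost the call in 8 of 12 fits (highest adjusted p 0.12 by limma, without LC day 1 replicate 3). Masp1, a complement lectin pathway protease gene, was higher in ET on day 1 by 1.00, while the other probe sets of Masp1 differed by -0.08 and 0.09 over both days. The change of Masp1 between days lost its call in 5 of 12 such fits, was -0.81 without LC day 3 replicate 2 (limma adjusted p = 0.071) and was -0.50 with the mean of probe sets (adjusted p = 0.037). G0s2 lost its call in 5 of 12 fits and Cxcl13 in 3.

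For 1591 genes the early ET minus LC difference differed between the rostral and the caudal segment.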

How the results depend on the processing

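Of 39 genes of the naming rule called over both days, 0 changed sign in any alternative. With each array left out in turn 16 kept their call, and under every alternative 4 did. Among the 39, the microglial list gene Csf1r and the proteoglycan gene Cspg4 were lower in ET, and the positional gene Hoxc8 was higher. Their calls were lost in 6, 5 and 8 of 12 fits with 1 array left out. With the compared groups alone, 19 genes were called over both days, 31 on day 1, 0 on day 3 (1183 at an unadjusted limma p under 0.05), 0 for the day difference (1272) and 0 for the segment difference (3308); fewer arrays estimate the spread there. With the beta-actin covariate the counts were 77 over both days, 55 on day 3, 128 for the day difference and 2447 for the segment difference. Array weights gave 698 on day 1, 30 on day 3, 126 for the day difference and 3209 for the segment difference. On day 3 quantile normalization gave 126 and 75th percentile scaling 122. One fit of all arrays gave 427 on day 3 and 137 for the day difference. With both ET day 3 replicate 2 and LC day 3 replicate 1 left out, chosen after seeing the data, 53, 24 and 32 genes were called over both days, on day 3 and for the day difference. The cause of these shifts, that with the compared groups alone included, was not tested. The day difference split 48 up and 34 down, against 89 and 20 under 75th percentile scaling and 48 and 18 under quantile normalization; NT3 minus ET split 1117 and 739, against 870 and 972, and 862 and 887.

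With each array left out, counts ran from 89 to 1532 over both days, 19 to 443 on day 1, 50 to 915 on day 3, 11 to 234 for the day difference, 160 to 2804 for the segment difference, 1019 to 2030 for NT3 minus ET and 3207 to 4133 on days 10 to 90. Without Rostral LC day 1 replicate 3 day 1 gave 19. The replicate block over all arrays, where 4 of 6 same-numbered ET and LC pairs and 7 of 12 rostral and caudal pairs had a correlation over 0.1, gave 507, 263, 279, 94, 1663, 1931 and 3863 in the same order. The block within the day 1 arrays, added after seeing the data, gave 571 over both days, 272 on day 1 and 125 for the day difference. Among the named genes it added the call of Bdnf over both days and lost none. Arrays at 3 per group limit what could be called. In simulated data, where no array stood apart, 10 of 67 genes changed by 0.3 were recovered on day 1. Of those changed by 0.6, 43 of 67 were recovered, and of those changed by 1.2, 61 of 66.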
